A study of Mus musculus with 62 samples.

Results

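Genes that mark mast cells and basophils, 10 in all, were followed in the lungs of mice challenged with Der p 1, a major allergen of the house dust mite: Mcpt4, Mcpt8, Cpa3, Tpsb2, Tpsab1, Cma1, Fcer1a, Ms4a2, Hdc and Gata2. A gene was taken as measured where the platform's annotation gave a transcript cluster that symbol and no other, and the brightest such cluster stood for the gene. By this rule 8 of the 10 genes were measured, of 14824 genes in all. Mcpt4 and Tpsab1 were not measured here. One further cluster carried Tpsb2 and Tpsab1 together and was not used, since the 2 tryptases cannot be told apart in it.

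RNA of the right lower lung lobe was measured on 62 Affymetrix Mouse Exon 1.0 ST arrays from 48 male mice. Every mouse, controls included, was first sensitised by injection into the peritoneum of 10 µg Der p 1 on day 1 and again on day 8. On day 15 the mice were challenged, by a route the labels do not name, with 50 µg Der p 1 or with PBS, and the lungs were taken on day 18, 72 h later. The groups were 11 BALB/cJ mice given PBS, 14 BALB/cJ mice given Der p 1, 11 C57BL/6J mice given PBS and 12 C57BL/6J mice given Der p 1; no unsensitised group was analysed. Values are log2 RMA values, in which a difference of 1 is a doubling, and error is given as the SD over mice or the standard error (SE) of a difference. Nothing in the labels says how the mice were housed or born, so p-values measure the spread between these mice.

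The mouse numbers begin with 5 (20 mice) or 6 (28 mice). No label says what distinguishes these number series, each of which holds mice of every group, and values within each are given as for a batch. A pair of mice of series 6 went against the rest of their groups for Clca1, a goblet cell gene. Mouse633, labelled a BALB/cJ control, had Clca1 at 12.6, whereas the other 10 BALB/cJ controls lay between 5.12 and 7.74. Mouse634, labelled challenged, had Clca1 at 6.43, whereas the other 13 challenged BALB/cJ mice lay between 10.1 and 12.6. Both were kept under their labels. Values of the mast cell and basophil genes in BALB/cJ mice that they move by over 1.5 times, or whose call they change, are given with and without them. In C57BL/6J mice Clca1 did not separate the groups, with controls between 5.96 and 12.7.

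Mast cells and basophils carry the high-affinity IgE receptor, whose crosslinking by allergen releases stored histamine and proteases within minutes. Mast cells mature in tissue, where stem cell factor acting on Kit keeps them alive, and in mice their granules hold chymases, tryptases and carboxypeptidase A. Basophils mature in the marrow and reach inflamed lung through the blood, and in mice they are marked by the protease mMCP-8. In a lobe that mixes all lung cells, a low value in these genes can come from few cells or from little RNA in each cell, and these cannot be told apart.

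The promoters of 3 members are printed to show where the letters that GATA factors, Gata2 among them, are known to bind do and do not occur; 8 of the 10 genes have a promoter in the RefSeq table (GRCm38.p6). The 250 bases before the start of transcription are given 5′ to 3′ on the gene's strand, all 3 from the minus strand, with GATAA or its reverse complement TTATC in capitals. They were chosen because Cpa3 varied most among the members, Mcpt8 varied with it, and Ms4a2 held the most matches.
Cpa3, chr3:20242182-20242431: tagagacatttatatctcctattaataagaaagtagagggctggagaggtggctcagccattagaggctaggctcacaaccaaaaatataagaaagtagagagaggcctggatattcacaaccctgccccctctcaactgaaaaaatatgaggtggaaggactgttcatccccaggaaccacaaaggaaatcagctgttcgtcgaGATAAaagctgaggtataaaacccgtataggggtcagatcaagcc
Ms4a2, chr19:11623720-11623969: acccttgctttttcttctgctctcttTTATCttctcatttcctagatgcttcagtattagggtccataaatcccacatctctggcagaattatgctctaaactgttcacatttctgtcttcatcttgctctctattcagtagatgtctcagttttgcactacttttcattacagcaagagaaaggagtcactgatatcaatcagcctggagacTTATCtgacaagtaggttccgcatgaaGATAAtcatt
Mcpt8, chr14:56085198-56085447: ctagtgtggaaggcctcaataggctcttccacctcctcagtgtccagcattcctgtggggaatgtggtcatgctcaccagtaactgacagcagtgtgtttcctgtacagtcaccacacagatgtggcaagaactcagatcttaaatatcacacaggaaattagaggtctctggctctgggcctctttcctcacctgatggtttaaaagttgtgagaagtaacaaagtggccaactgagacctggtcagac
GATAA on either strand was found in 5 of the 8 promoters, those of Mcpt4, Cpa3, Cma1, Fcer1a and Ms4a2. Of all 32851 promoters in the table, 22.6% hold it in a window of this length. The match of Cpa3 lies on the gene's strand 45 bases before the start. Ms4a2 holds 3 matches, 224, 37 and 10 bases before the start, and Mcpt8 holds none. CATGTG, an E-box of the kind that Mitf binds, was found only in the promoter of Fcer1a among the 8, and in 12.3% of all promoters. These matches are letters in a window and do not show that a factor was bound.

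The 8 genes fell into 2 ranges of signal, which are given as a description since probes of different genes are not on one scale. Hdc and Gata2 were bright, at 8.81 and 8.998 on average over the mice, above the mean values of 90.4% and 92.1% of all clusters. The other 6 were dim, from 3.79 for Fcer1a to 5.14 for Mcpt8, above 10.0% to 27.2% of clusters. As background, mast cells and basophils are rare in lung. Both bright genes are also used by other lung cells: Gata2 by endothelium and Hdc by neutrophils and macrophages. What sets the 2 ranges apart was not tested.

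Repeat arrays of 7 mice, 3 for each, gave the technical spread. For Cpa3, which encodes the carboxypeptidase of the mast cell granule, mice of a group differed by an SD of 0.49 and repeat arrays of a mouse by 0.12. Hdc, the enzyme that makes histamine, had 0.40 between mice and 0.09 between repeats, and Gata2 had 0.30 and 0.10. In these 3 genes mice differed by more than repeat arrays did. The spread between mice holds any difference between the number series, and the repeat arrays are of series 5 mice except those of mouse631. Within a group and series the smallest SD was 0.145 for Cpa3, 0.142 for Hdc and 0.171 for Gata2, each still above that of repeats. For Cma1, a chymase, the spread between mice of 0.19 was no larger than that between repeats, 0.20. Ms4a2, the beta chain of the IgE receptor, had 0.23 between mice and 0.28 between repeats, so for these 2 genes mice of a group differed no more than repeat arrays did. Mcpt8, Fcer1a and Tpsb2 lay between, with 0.38 and 0.24, 0.41 and 0.32, and 0.26 and 0.17.

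**Figure D1:**
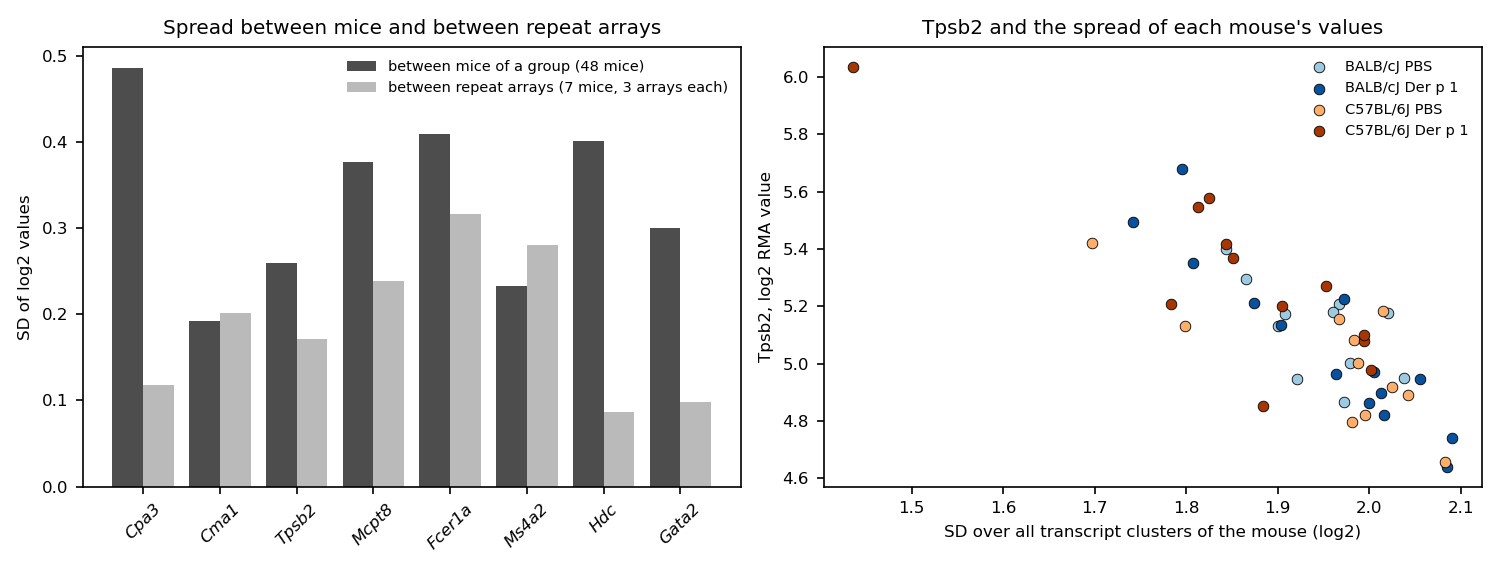
Left, SD of log2 values of each gene between mice of a group (dark bars, 48 mice, pooled over the 4 groups) and between repeat arrays of the same mouse (light bars, 7 mice with 3 arrays each). Right, Tpsb2 (log2 RMA value) of each of the 48 mice against the SD over all 16715 clusters of that mouse. Cpa3 and Hdc vary more between mice of a group, taken over both number series, than between repeats. Tpsb2 is highest in the mice whose values spread least.

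In C57BL/6J mice the challenge was followed by lower Gata2 and higher Tpsb2, and the other 6 genes did not pass the test. These 2 calls of 8 stand against 18.8% of all 16715 clusters called in this comparison (limma over all clusters, Benjamini-Hochberg adjusted p under 0.05), so members were called about as often as other clusters. The median difference of the 8 was 0.24, against 0.07 over all clusters, and 7 of the 8 were above 0. All the dim genes were among those 7, and the median was not set against dim clusters alone. The SD of a mouse's values over clusters was 1.86 on average in challenged C57BL/6J mice and 1.96 in their controls, and its part in this median was not tested. The groups of mice overlapped for each of the 8 genes.

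Gata2, a transcription factor that mast cells and basophils need, was between 8.98 and 9.68 in the 11 C57BL/6J controls with a median of 9.23. In the 12 challenged mice it was between 8.57 and 9.24 with a median of 8.90. All 12 challenged mice lay below the mean of the controls, though the ranges overlapped. The difference was −0.38 ± 0.12 (SE; 1.30-fold lower, limma adjusted p = 0.0273). The call was lost without mouse529, mouse536, mouse659 or mouse661, with an adjusted p of up to 0.0579, and with quantile normalization of the arrays again, where the difference was −0.23 (adjusted p = 0.276). Within series 5 the difference was −0.56 (adjusted p = 0.0672) and within series 6 it was −0.24 (adjusted p = 0.207), from a fit with 1 mean for each group and series, in which 1.56% and 20.5% of clusters were called. That fit, used for each value within a series, was added after the values were seen. With the number series as a covariate the difference of Gata2 was −0.35 (limma adjusted p = 0.0169), beside 32.8% of all clusters called. Endothelial markers fell beside Gata2: 4 of 10 listed genes were lower in challenged C57BL/6J mice, beside 18.8% of all clusters called. None was higher, and the median was −0.28. The mean level of that list lay between 9.86 and 10.1 in controls and between 9.23 and 10.0 in challenged mice. The part of endothelium in the difference of Gata2 was not tested.

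Tpsb2, a tryptase of connective tissue mast cells, lay between 4.66 and 5.42 in C57BL/6J controls (median 5.001) and between 4.85 and 6.03 after Der p 1 (median 5.24). It was above the control mean in 10 of 12 challenged mice, and the highest, mouse532, stood well apart. The difference was 0.30 ± 0.11 (SE; 1.23-fold higher, limma adjusted p = 0.0488), just inside the threshold. It passed in 18 of the 48 fits that left out 1 mouse. The difference was 0.30 without mouse633 and mouse634 (adjusted p = 0.0529) and 0.23 without mouse532 (adjusted p = 0.116). With the number series as a covariate it was 0.31 and passed (limma adjusted p = 0.024), beside 32.8% of all clusters called. Deviations of Tpsb2 from its group means ran against the SD of each mouse's values over all clusters, with Pearson r = −0.828 and Spearman rho = −0.767 over 48 mice (permutation within groups, 2-sided; both p = 1e-05, the smallest that 100000 permutations give, and adjusted p = 8e-05 and 4e-05 over the 8 genes). Without mouse532 and mouse531, the farthest from the median SD, r was −0.767; within series 5 and 6 it was −0.932 and −0.888. That SD was 1.86 on average in challenged C57BL/6J mice and 1.96 in their controls. With it in the model the difference of Tpsb2 was 0.10 (adjusted p = 0.341), and with quantile normalization again it was 0.15 (adjusted p = 0.117). A dimmer cluster of Tpsb2, above 1.30% of clusters, differed by −0.07 (adjusted p = 0.763).

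The genes of basophils and of the IgE receptor gave values above 0 in C57BL/6J mice that did not pass over both series. Mcpt8, which encodes mMCP-8, ranged from 4.18 to 5.37 in controls (median 4.89) and from 4.51 to 5.60 after Der p 1 (median 5.14). The challenged mice lay higher on average with broad overlap, a difference of 0.31 ± 0.15 (SE; limma adjusted p = 0.144). Within series 6 it was 0.48 ± 0.18 (adjusted p = 0.0563), which passed without mouse633 and mouse634 (adjusted p = 0.0358; 20.7% of clusters called), BALB/cJ mice that enter only the shared estimate of spread. It did not pass in 40 of the 48 fits that left out 1 mouse, and was 0.31 with the SD of each mouse's values in the model (adjusted p = 0.271). Within series 5 it was 0.02 ± 0.23 (adjusted p = 0.969). The test of the difference between the series gave 0.46 ± 0.29 (adjusted p = 0.793; 0% of clusters called). Fcer1a, the chain that binds IgE, differed by 0.29 ± 0.17 (adjusted p = 0.206) and Ms4a2 by 0.20 ± 0.10 (adjusted p = 0.146). Cpa3 differed by 0.29 ± 0.20 (adjusted p = 0.271). Hdc and Cma1 gave differences near 0, at 0.02 ± 0.16 and 0.00 ± 0.08, with 95% intervals of −0.30 to 0.35 and −0.17 to 0.17.

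**Figure D2:**
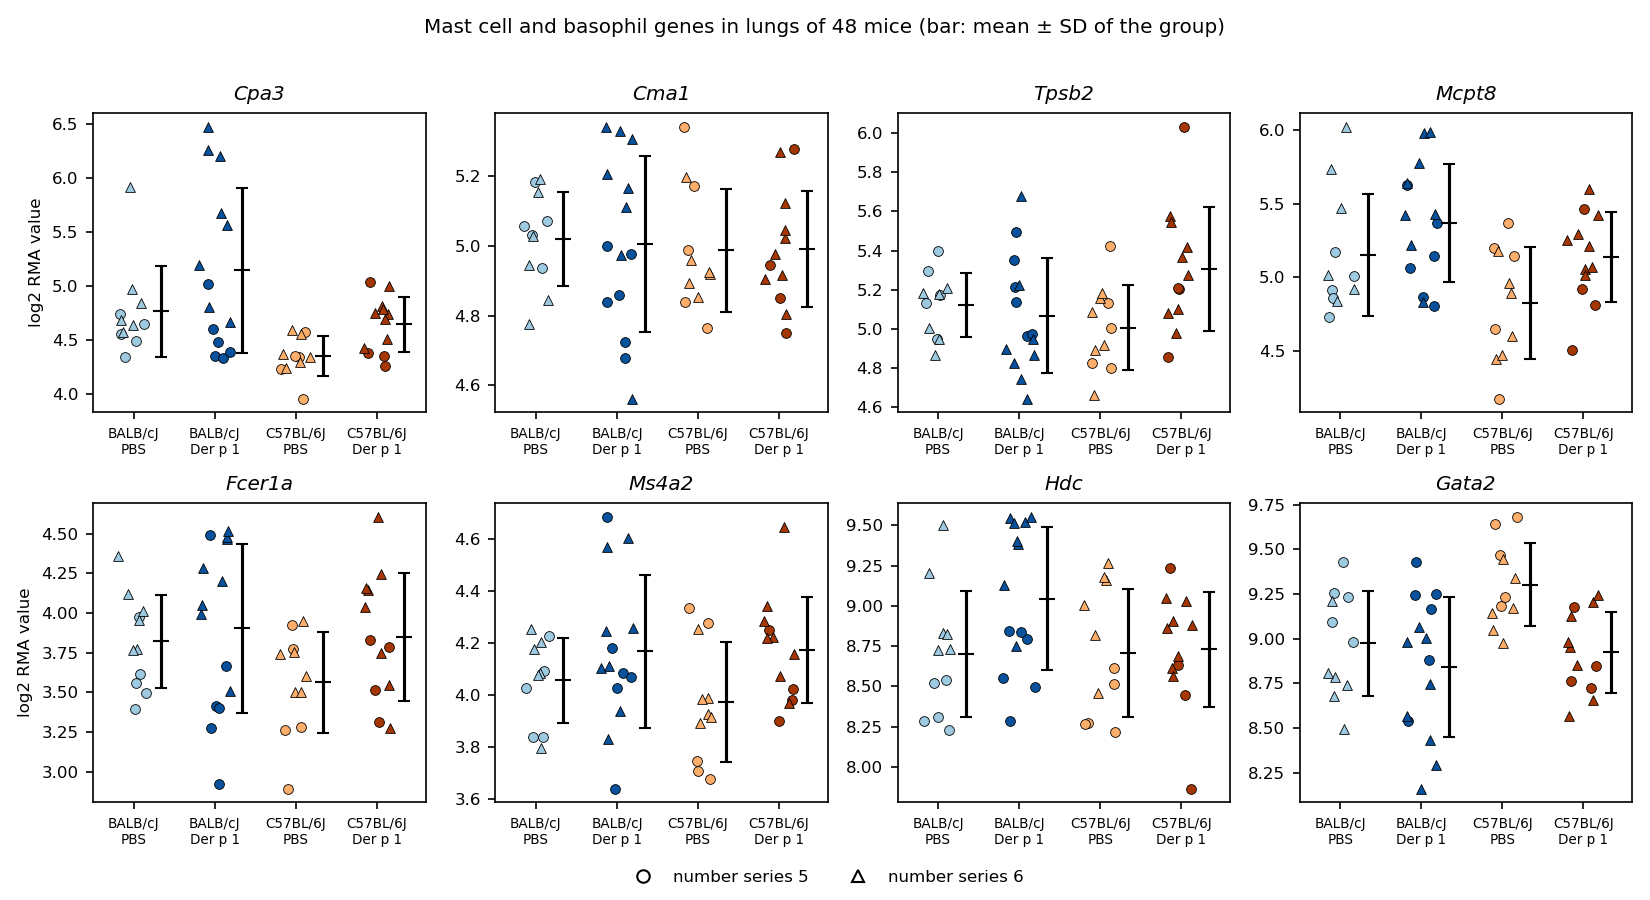
Log2 RMA values of the 8 measured genes in each of 48 mice by strain and challenge, with circles for number series 5, triangles for series 6, and bars for the group mean ± SD. For Cpa3, 6 of the 8 challenged BALB/cJ mice of series 6 lie above every C57BL/6J mouse, and all 12 challenged C57BL/6J mice lie below the control mean for Gata2.

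In BALB/cJ mice none of the 8 genes passed limma's test after challenge, beside 1.93% of all clusters, while 2 had an unadjusted p under 0.05. Those were Hdc and Cpa3, and in both the mice of series 6 were the high ones. The median over the 8 was 0.10, against −0.03 over all clusters. Without mouse633 and mouse634 none of the 8 passed either, beside 4.84% of clusters.

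Cpa3 lay between 4.34 and 5.92 in the 11 BALB/cJ controls (median 4.65) and between 4.33 and 6.48 in the 14 challenged mice (median 4.91). The means were 4.76 ± 0.42 and 5.14 ± 0.76 (SD), a difference of 0.38 ± 0.19 (SE; limma adjusted p = 0.415), which did not pass, nor did the 0.53 without mouse633 and mouse634 (adjusted p = 0.0879). The challenged mice were split by number series. In series 5 the 6 challenged mice ranged from 4.33 to 5.02 (median 4.43), inside or close to the range of their 5 controls, 4.34 to 4.74. In series 6 the 8 challenged mice ranged from 4.66 to 6.48 (median 5.62), and their 6 controls from 4.57 to 5.92 (median 4.77). The highest of those controls was mouse633 and the lowest of the challenged mice was mouse634, the pair whose Clca1 went against their labels. Without mouse633 the highest control of series 6 was at 4.97.

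The challenge difference of Cpa3 within series 6 was 0.67 ± 0.20 (SE; limma adjusted p = 0.0855; 1.14% of clusters called) and within series 5 it was −0.03 ± 0.22 (adjusted p = 0.977; 0.191% called). Without mouse633 and mouse634 the difference in series 6 was 1.00 ± 0.18 and passed (adjusted p = 0.000156; 5.62% called), and leaving out 1 mouse, either of these or mouse636, was enough for a call. The test of the difference between the series did not pass, at 0.70 ± 0.30 (unadjusted p = 0.0245, adjusted p = 1; 0% of clusters called), nor did it without the 2 mice (1.03, adjusted p = 0.264). Markers of some other cells were also higher in the challenged BALB/cJ mice of series 6. Without the 2 mice, the mean level of the eosinophil list was 4.55 to 5.01 in controls and 6.03 to 6.82 in challenged mice, that of the macrophage list 7.31 to 7.86 and 8.19 to 9.24, and that of the dendritic cell list 6.496 to 6.94 and 6.96 to 7.38. Smooth muscle and connective tissue lists were higher too, at 7.38 to 8.06 and 8.21 to 8.72, and at 8.59 to 8.87 and 8.95 to 9.41. The other marker lists overlapped between controls and challenged mice. Mouse636, challenged, had Cpa3 at 4.80 and the eosinophil list at 6.03, so the 2 did not go together in every mouse. Mouse633 had the eosinophil list at 6.66 and mouse634 at 4.67, each within the range of the other mice of the opposite label. The part of these cells in Cpa3 was not tested.

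Hdc lay between 8.23 and 9.50 in BALB/cJ controls (median 8.73) and between 8.28 and 9.55 after challenge (median 8.98). The difference was 0.34 ± 0.16 (SE; limma adjusted p = 0.347), and 0.45 without mouse633 and mouse634 (adjusted p = 0.0973). Described by series, controls of series 5 averaged 8.38 ± 0.14 (SD) and those of series 6 8.97 ± 0.32, while challenged mice averaged 8.64 ± 0.23 and 9.35 ± 0.28. The challenge difference in series 6 was 0.38 ± 0.15 (adjusted p = 0.276), and without mouse633 and mouse634 it was 0.57 ± 0.15 (adjusted p = 0.0108). In series 5 it was 0.26 ± 0.17 (adjusted p = 0.624). Macrophage markers rose in these mice, 5 of 11 being higher in challenged BALB/cJ mice, beside 1.93% of all clusters called. The mean level of that list was between 7.18 and 8.93 in controls and between 7.67 and 9.24 after challenge. The highest control was mouse633, and the next, mouse619, was at 7.86. Of the neutrophil markers 0 of 11 passed (2 at an unadjusted p under 0.05), with a median of −0.06. The part of either cell in Hdc was not tested.

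Among the other genes in BALB/cJ mice, Mcpt8 differed by 0.22 ± 0.15 (SE), from 5.15 ± 0.41 to 5.37 ± 0.40 (SD; limma adjusted p = 0.648). Without mouse633 and mouse634 it differed by 0.34 (adjusted p = 0.195), and within series 6 by 0.20 with them and 0.44 without (adjusted p = 0.893 and 0.185). Fcer1a differed by 0.08 and Ms4a2 by 0.11 (adjusted p = 0.917 and 0.756), and Fcer1a by 0.17 without the 2 mice (adjusted p = 0.734). Tpsb2 differed by −0.05, Cma1 by −0.01 and Gata2 by −0.13 (adjusted p = 0.918, 0.974 and 0.773), and Gata2 by −0.195 without the 2 mice (adjusted p = 0.50). Mouse633 was the highest BALB/cJ control for Cpa3, Mcpt8, Fcer1a, Hdc and Cma1 and the lowest for Gata2.

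**Figure D3:**
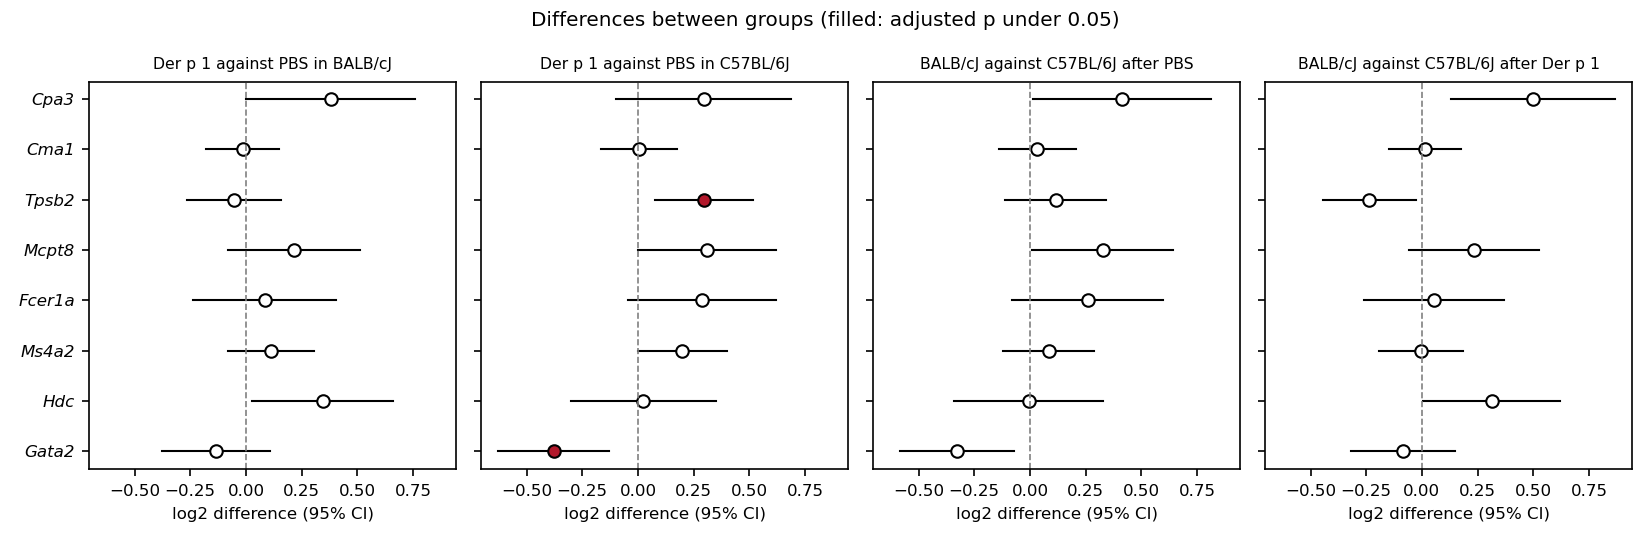
Log2 differences (points) with 95% confidence intervals (lines) of the 8 genes in 4 comparisons of 48 mice; filled points have a limma adjusted p under 0.05. Gata2 and Tpsb2 after challenge of C57BL/6J mice are the filled points, and Cpa3 is the gene farthest to the right in both comparisons of the strains.

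The change after challenge was compared between the strains by the interaction, which asks whether C57BL/6J mice changed by more than BALB/cJ mice. None of the 8 genes passed, beside 0.012% of all clusters, and 1 had an unadjusted p under 0.05. That gene was Tpsb2, at 0.35 ± 0.15 (SE; limma adjusted p = 0.426). Hdc gave −0.32 ± 0.23 and Gata2 −0.24 ± 0.17 (both adjusted p = 0.551), and the fall of Gata2 in C57BL/6J mice is therefore not shown to differ from the −0.13 in BALB/cJ mice.

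Between the strains after PBS, the values of Cpa3 and Mcpt8 were above 0 (BALB/cJ minus C57BL/6J) and that of Gata2 below it, and none passed limma's test. None of the 8 was called, beside 4.66% of all clusters, and 3 had an unadjusted p under 0.05. Cpa3 differed by 0.41 ± 0.20 (SE; 1.33-fold, limma adjusted p = 0.366), and 0.30 without mouse633. Of 11 BALB/cJ controls, 10 were above the C57BL/6J mean of 4.35 ± 0.18 (SD). Mcpt8 differed by 0.33 ± 0.16 (adjusted p = 0.36) and Gata2 by −0.33 ± 0.13 (adjusted p = 0.164).

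After Der p 1 the gap in Cpa3 between the strains was 0.50 ± 0.18 (SE; 1.41-fold higher in BALB/cJ, limma adjusted p = 0.0606), just outside the threshold, and none of the 8 genes was called, beside 13.3% of all clusters. With the number series as a covariate, Cpa3 passed at 0.54 (adjusted p = 0.0111) and Hdc at 0.37 (adjusted p = 0.013), beside 27.0% of clusters. Cpa3 also passed without mouse633 and mouse634, at 0.535 (adjusted p = 0.0395; 10.7% called), and in 7 of the 48 fits that left out 1 mouse. Within series 6 the difference passed. There BALB/cJ mice had Cpa3 at 5.61 ± 0.68 (SD, n = 8) and C57BL/6J mice at 4.72 ± 0.18 (n = 8), a difference of 0.89 ± 0.18 (SE; limma adjusted p = 0.000595). Of these 8 BALB/cJ mice, 6 lay above the highest of all 23 C57BL/6J mice, which was at 5.03. In series 5 the difference was 0.02 ± 0.24 (adjusted p = 0.965), and 0 of 6 challenged BALB/cJ mice lay above that level.

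Over both series Hdc differed by 0.31 ± 0.15 (SE; adjusted p = 0.155), and by 0.10 with the SD of each mouse's values in the model. It was higher in challenged BALB/cJ than in challenged C57BL/6J mice of series 6 by 0.53 ± 0.14 (SE; limma adjusted p = 0.00671), from ranges of 8.75 to 9.55 and 8.57 to 9.05, and in series 5 by 0.09 ± 0.18 (adjusted p = 0.794). Cpa3 and Hdc were the 2 members of 8 called in series 6, beside 17.5% of all clusters, and 0 were called in series 5, beside 2.06% (0 also at an unadjusted p under 0.05). Both calls held when each of the 48 mice was left out, with adjusted p of at most 0.00278 for Cpa3 and 0.0181 for Hdc. With the SD of each mouse's values in that fit the differences were 0.97 ± 0.19 for Cpa3 (adjusted p = 0.000348) and 0.41 ± 0.13 for Hdc (adjusted p = 0.0327). The series themselves were not shown to differ: the test of that gave 0.87 ± 0.30 for Cpa3 (adjusted p = 0.55) and 0.44 ± 0.23 for Hdc (adjusted p = 0.775), beside 0.0179% of clusters called. Over both series, smooth muscle and connective tissue markers were also higher in challenged BALB/cJ mice (3 of 8 each, medians 0.42 and 0.37). So were 3 of 10 endothelial markers (median 0.26) and 1 of 6 mesothelial markers (median 0.33). Lower were 1 of 9 eosinophil markers (median −0.43) and 2 of 11 macrophage markers (median 0.01). Of the neutrophil markers 0 of 11 passed (median −0.025, 4 at an unadjusted p under 0.05), and no gene of the other marker lists did. Of all clusters 13.3% were called. The mean level of the smooth muscle list was 7.92 to 8.74 in challenged BALB/cJ and 7.38 to 8.59 in challenged C57BL/6J mice, and that of the connective tissue list 8.86 to 9.52 and 8.35 to 9.04. The part of any of these cells in Cpa3 and Hdc was not tested.

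Mice that deviated in 1 gene often deviated in others. Of the 28 pairs among the 8 genes, 15 had an adjusted p under 0.05 by both Pearson r and Spearman rho over the deviations of 48 mice from their group means (permutation within groups, 2-sided, Benjamini-Hochberg over 28 pairs). How often pairs of other clusters would pass was not computed, so the count is not shown to be particular to these genes. These deviations keep any difference between the number series. With deviations from the mean of each group and series, permuted within group and series, 9 of the 15 passed and no other pair did. The 6 lost were Cpa3 and Gata2, Cpa3 and Hdc, Fcer1a and Hdc, Hdc and Gata2, Fcer1a and Gata2, and Mcpt8 and Cma1, whose r within series was −0.422, 0.248, 0.144, −0.164, −0.241 and 0.389. The pair with the largest r was Cpa3 and Mcpt8, with r = 0.653 and rho = 0.643 (adjusted p = 0.00014 and 0.00028; raw p = 1e-05, the smallest that 100000 permutations give). It was 0.617 without mouse536 and mouse633, the 2 mice farthest from the median of Mcpt8, 0.740 and 0.587 within series 5 and 6, and 0.686 with the SD of each mouse's values removed. Within series 5 both genes ran against the SD of each mouse's values, with r = −0.783 for Cpa3 and −0.698 for Mcpt8. Within series 6 these were 0.112 and −0.153. The part of that SD in the r within series 5 was not tested. Cpa3 is used by mast cells and also by basophils, whereas Mcpt8 marks basophils.

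Fcer1a went with both of them. Its r was 0.621 with Cpa3 (rho = 0.595, permutation adjusted p = 0.00042 and 0.000933; 0.491 and 0.446 within the series) and 0.609 with Mcpt8 (rho = 0.600, adjusted p = 0.00014 and 0.00028; 0.555 and 0.516). Without the 2 farthest mice these were 0.597 and 0.584. With the SD of each mouse's values removed they were 0.611 and 0.649. Cpa3 and Cma1 gave r = 0.632 (rho = 0.572, permutation adjusted p = 0.00042 and 0.00098). It was 0.551 without mouse624 and mouse635, 0.622 and 0.590 within the series, and 0.732 with the SD of each mouse's values removed. Cma1 ran against that SD with r = −0.813 within series 5 and −0.397 within series 6. Mice of a group differed in Cma1 no more than repeat arrays did (SD 0.19 and 0.20), and the part of array noise in this r was not tested. Gata2 ran the other way, with r = −0.581 against Cpa3 (rho = −0.481, adjusted p = 0.00112 and 0.00486; −0.533 without the same 2 mice; −0.270 and −0.489 within the series).

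Among the pairs called, 3 changed sign under an alternative, and all 3 hold Hdc. Within series 5 Hdc followed the SD of each mouse's values (r = 0.662) and Cpa3 ran against it (r = −0.783). The part of that SD in the sign of Cpa3 and Hdc within series 5 was not tested. Cpa3 and Hdc gave r = 0.544 over all mice (rho = 0.50, permutation adjusted p = 0.000933 and 0.00322; 0.496 without mouse624 and mouse635), but −0.576 within series 5 and 0.608 within series 6, so the relation did not hold in both series. Tpsb2 and Hdc gave r = −0.523 (rho = −0.495, adjusted p = 0.00112 and 0.00324; −0.502 without mouse532 and mouse625; −0.734 and −0.353 within the series), and 0.008 once the SD of each mouse's values was removed. Fcer1a and Hdc gave r = 0.484 (rho = 0.475, adjusted p = 0.00285 and 0.00412; 0.469 without mouse530 and mouse525), but −0.150 and 0.411 within the series. Hdc itself followed that SD with r = 0.636 (rho = 0.627, adjusted p = 8e-05 and 4e-05 over the 8 genes; 0.555 without mouse532 and mouse531; 0.662 and 0.199 within the series).

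**Figure D4:**
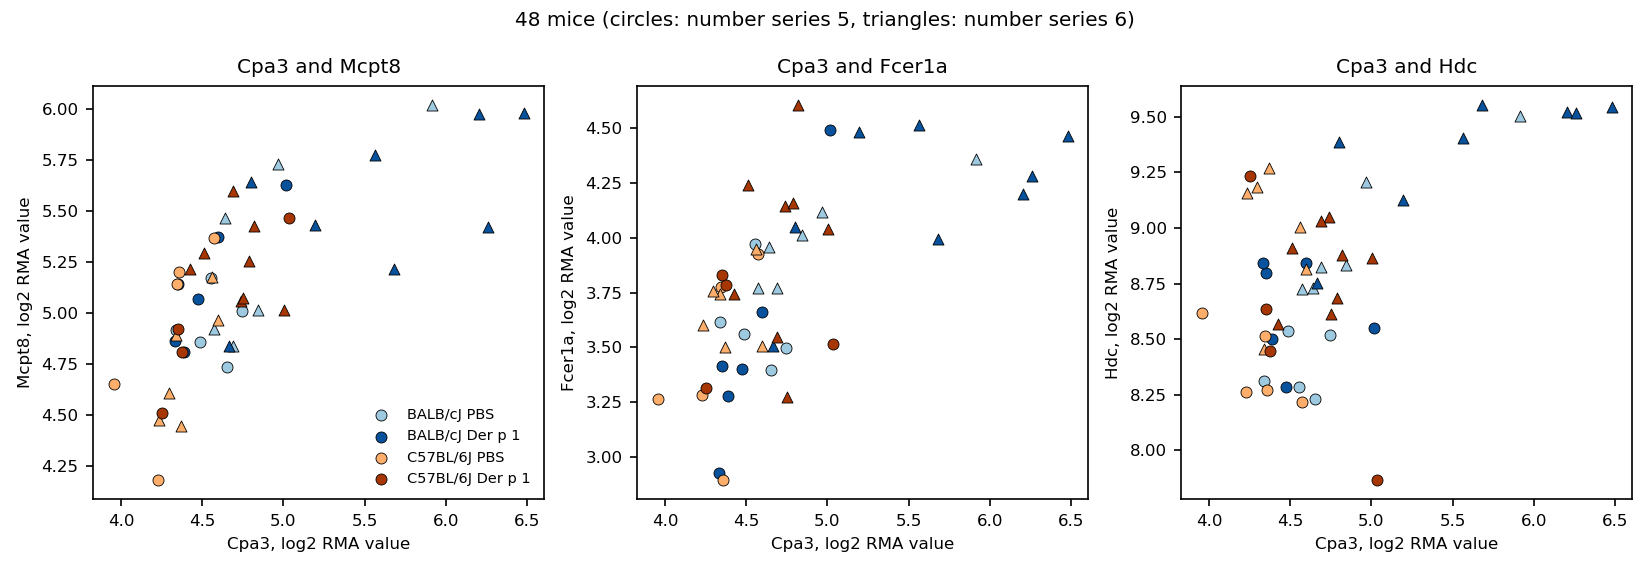
Cpa3 (x axis) against Mcpt8, Fcer1a and Hdc (y axes), log2 RMA values of 48 mice coloured by strain and challenge, with circles for number series 5 and triangles for series 6. The mice with the highest Cpa3, from 5.56 upward, are challenged BALB/cJ mice of series 6 and mouse633, a labelled control, and they are also high in Hdc.

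**Figure D5:**
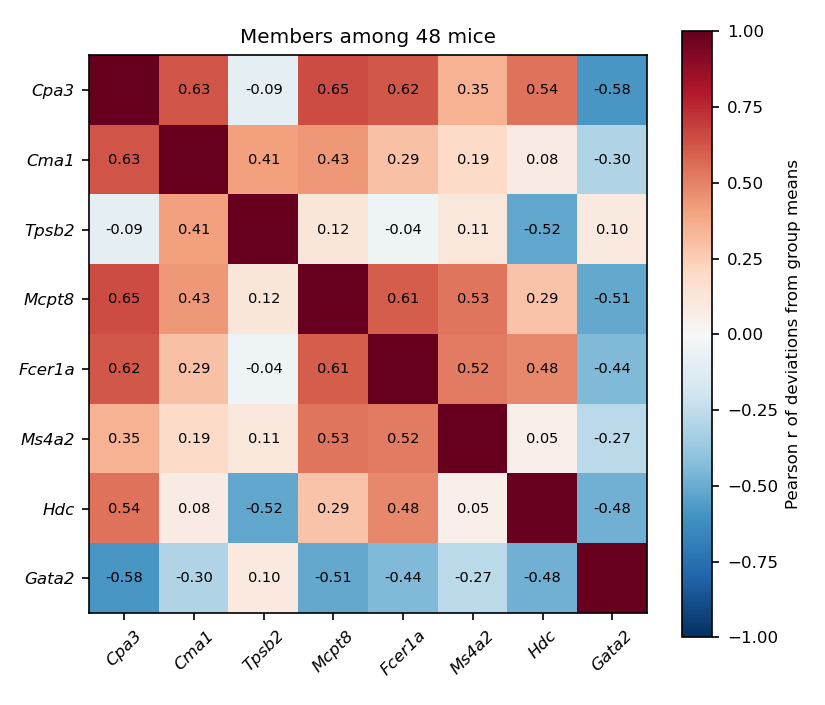
Pearson r between the 8 genes over the deviations of 48 mice from their group means (red positive, blue negative). Cpa3, Mcpt8, Fcer1a and Cma1 have positive r with each other, and Gata2 has negative r with each of them. Of these pairs, Cma1 with Fcer1a (0.292) and Cma1 with Gata2 (−0.299) were not called. With deviations from the mean of each group and series, Gata2 was called only with Mcpt8.

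Over all named clusters, the 5 whose deviations were most like those of Cpa3 were Aass (r = 0.846), a lysine breakdown enzyme, Cd209d (0.819), a C-type lectin, Siglech (0.812) and Ccr9 (0.798), both known from plasmacytoid dendritic cells, and Slc37a2 (0.794). For Mcpt8 they were Cyp11a1 (r = 0.814), the enzyme that starts steroid synthesis, Cd4 (0.712), Tnfrsf18 (0.657), a receptor of T cells, Adtrp (0.657) and Cpa3 (0.653). These r values describe the 48 mice and were picked as the highest of all clusters, so no test is given. With the number series removed they were 0.788 for Aass and 0.788 for Cyp11a1. The dendritic cell list holds none of these genes. After challenge 1 of its 8 measured genes was higher in BALB/cJ mice, beside 1.93% of all clusters called. In C57BL/6J mice 3 of 8 were higher, beside 18.8%. Whether that list goes with Cpa3 or Mcpt8 was not tested.

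The wider pathway was read from 65 measured genes for granule proteases, amine handling, IgE receptor signalling, surface receptors, ligands, transcription factors, lipid mediators and histamine receptors. These lists were chosen with earlier results of these data known, so shares called among the 65 do not test the pathway against other clusters. In C57BL/6J mice 16 of the 65 rose after challenge and 3 fell, 29.2% called beside 18.8% of all clusters. The SD of a mouse's values over clusters was 1.86 on average in challenged C57BL/6J mice and 1.96 in their controls. The 65 genes were not read with that SD in the model or with quantile normalization again, so how far these calls depend on it was not tested. In BALB/cJ mice 0 of 65 passed, beside 1.93% of clusters, and 13 had an unadjusted p under 0.05. Without mouse633 and mouse634, 4.84% of clusters were called in BALB/cJ mice. The 65 genes were not read from that fit, so the 0 holds only with both mice kept. The interaction called 0 of 65 as well, with 10 at an unadjusted p under 0.05.

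The signalling arm of the IgE receptor held 5 of the 16. Plcg2, a phospholipase of the receptor's signal, rose by 0.60 ± 0.12 (SE; limma adjusted p = 0.000471), the adaptor Lat by 0.65 ± 0.14 (adjusted p = 0.00143), and Syk, Fcer1g and Btk rose by 0.66, 0.87 and 0.66. T cells, B cells, eosinophils and macrophages use these genes too. Of their markers, 6 of 9 for eosinophils and 6 of 11 for macrophages rose in the same mice, beside 18.8% of all clusters called. For T cells 3 of 10 rose and 1 fell, whereas 0 of 5 for B and plasma cells passed (median −0.002, 1 at an unadjusted p under 0.05). The mean level of the eosinophil list was 4.08 to 5.42 in controls and 4.87 to 7.64 after challenge, and that of the macrophage list 7.19 to 8.33 and 7.11 to 9.13. Their part in these rises was not tested.

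Among ligands, Il13 rose by 0.92 ± 0.20 (SE; limma adjusted p = 0.00127), and Il4, Il6 and Il3, which mast cells and basophils both make or answer to, rose by 0.68, 1.33 and 0.40. Kitl, the stem cell factor that mast cells need, fell by 0.48 (adjusted p = 0.0178). Among receptors, Il9r rose by 0.42 ± 0.09 (adjusted p = 0.000796), Il3ra by 0.46 and Cd200r3, a receptor of basophils and mast cells, by 0.41 (adjusted p = 0.00975). Of the transcription factors Runx1, Gata1, Spi1 and Stat5a rose by 0.54, 0.37, 0.46 and 0.23, and Stat5b fell by 0.42. Ptgs2, the inducible cyclooxygenase, fell by 0.68. None of the 6 other granule proteases, the 7 genes for amine handling or the 4 histamine receptors passed, though 3, 4 and 2 of them had an unadjusted p under 0.05.

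Between the strains, Kit, the receptor for stem cell factor, was higher in BALB/cJ mice after PBS by 0.48 ± 0.11 (SE; limma adjusted p = 0.00329) and after Der p 1 by 0.43 ± 0.10 (adjusted p = 0.003). Mitf, a factor that mast cells need, was higher after PBS by 0.38 (adjusted p = 0.0359). These were the 2 of 65 called after PBS, 3.08% beside 4.66% of all clusters. After Der p 1, 2 were higher in BALB/cJ mice and 9 lower, 16.9% beside 13.3%. Ptgs2 was higher by 0.87 ± 0.23 (adjusted p = 0.00782). Plcg2 was at −0.51 ± 0.11 and Hrh2, a histamine receptor, at −0.69 ± 0.17 (BALB/cJ minus C57BL/6J; adjusted p = 0.00106 and 0.00376). Kit is carried by other lung cells as well and by itself does not count mast cells.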

How the data were processed

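The authors deposited log2 values for 16715 transcript clusters on 62 arrays, summarised by RMA from core exons with Partek Genomics Suite per the labels (version not given in the sources used here). Values ran from 1.27 to 13.8. Array depth has no count; precision came from repeat arrays. The 3 arrays of each of 7 mice were averaged, giving 48 mice, grouped by the labels' strain and challenge.

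Each cluster was modelled by 4 group means with limma 3.58.1 in R 4.3.3, with p-values adjusted by Benjamini and Hochberg over all clusters of a comparison. The scripts were tested on simulated data.

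Members and gene lists were chosen with earlier results of these data known. Named are every measured member, up to 4 role genes with the smallest p per comparison, further called role genes as values, and the 5 clusters most like Cpa3 and Mcpt8; the further role genes were chosen after their values were seen. Raw intensities were not used here, so probes over strain polymorphisms could not be masked, which bears on the strain comparisons.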

Additional observations from a re-analysis of the deposited data

How the results depend on the processing

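No paired analysis was possible because the repeat numbers in the labels mark arrays of 1 mouse and nothing links mice across groups. The count of members called in C57BL/6J mice after challenge, 2, was 0 with quantile normalization again or in series 5 alone, 4 with array weights, and 1 with median centring, the first array of each mouse, mouse as a random effect, series 6 alone, the array SD as a covariate, the mean of all rows or without mouse633 and mouse634. Leaving out each mouse it ranged from 0 to 2, and was 0 without mouse529, mouse536, mouse659 or mouse661. Between the strains after Der p 1 the count of 0 became 1 with quantile normalization, median centring or without mouse633 and mouse634, and 2 with array weights, the number series as a covariate or series 6 alone (range 0 to 1 leaving out each mouse). Array weights gave 1 call after PBS and 1 in the interaction. In BALB/cJ mice over both series the count after challenge was 0 under each alternative run. Counts for a series alone come from fits to the mice of that series only. In the fit with 1 mean for each group and series, the counts within series 6 rose without mouse633 and mouse634. They went from 0 to 2 in the BALB/cJ challenge and from 0 to 1 in the C57BL/6J challenge. Of the 15 pairs of members called, 9 passed with 1 mean per group and number series removed.

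Of 537 other values of the members, 43 had the other sign, each from a difference that was not called, and the cause was not tested. "Both mice" are mouse633 and mouse634. Cma1 gave −0.030 (first array) and −0.11 (series 5) between the strains after Der p 1. Cma1 gave 0.13 (series 6) and 0.0050 (without both mice) in the BALB/cJ challenge. Cma1 gave −0.17 (quantile), −0.052 (median centring), −0.0020 (random effect), −0.0039 (series covariate), −0.065 (series 5) and −0.055 (array SD) in the C57BL/6J challenge. Cma1 gave −0.15 (quantile), −0.015 (median centring), −0.084 (series 6), −0.045 (array SD) and −0.0012 (without both mice) in the interaction. Cpa3 gave −0.028 (series 5) in the BALB/cJ challenge. Cpa3 gave 0.24 (series 5) in the interaction. Fcer1a gave −0.045 (first array), −0.073 (array weights), −0.082 (series 5) and −0.0052 (array SD) between the strains after Der p 1. Fcer1a gave −0.0053 (array weights) and −0.080 (series 5) in the BALB/cJ challenge. Gata2 gave 0.21 (series 5) between the strains after Der p 1. Hdc gave 0.0017 (quantile) and 0.034 (array SD) between the strains after PBS. Hdc gave −0.032 (median centring), −0.035 (array weights), −0.043 (series covariate) and −0.16 (series 6) in the C57BL/6J challenge. Mcpt8 gave −0.076 (quantile), −0.19 (series 5) and −0.035 (without both mice) in the interaction. Ms4a2 gave 0.17 (quantile), 0.033 (median centring), 0.00050 (random effect), 0.0060 (series covariate), 0.076 (series 5), 0.017 (array SD) and 0.022 (without both mice) between the strains after Der p 1. Ms4a2 gave −0.13 (quantile) and −0.019 (series 5) in the interaction. Tpsb2 gave −0.053 (mean of rows) between the strains after PBS. The r of Tpsb2 and Hdc turned to 0.008 with the array SD removed, and in series 5 those of Cpa3 and Hdc and of Fcer1a and Hdc turned to −0.576 and −0.150.

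Leaving out each mouse in turn moved 8 of the uncalled differences across 0: Cma1 from −0.011 to 0.049 between the strains after Der p 1, Cma1 from −0.041 to 0.019 in the BALB/cJ challenge, Cma1 from −0.022 to 0.039 in the C57BL/6J challenge, Cma1 from −0.016 to 0.054 in the interaction, Cpa3 from −0.20 to 0.018 in the interaction, Hdc from −0.086 to 0.050 between the strains after PBS, Hdc from −0.024 to 0.10 in the C57BL/6J challenge and Ms4a2 from −0.044 to 0.039 between the strains after Der p 1. Array noise limits what can be seen in Cma1 and Ms4a2.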
